A study of Zea mays with 2 samples.

Results

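The loci described here are 101 rows of the maize expression tables that were listed at exactly 0 FPKM in one genotype and reached 5 FPKM or more in the other. They were chosen by these FPKM values and by a span of at least 300 bp, from 44119 rows in all, of which 43974 lay on chromosomes 1 to 10. Of the 101 loci, 39 were listed at 0 in opaque2 and are called wild type only, and 62 were listed at 0 in wild type and are called opaque2 only. FPKM, a count of sequenced fragments scaled by transcript length and library size, is the unit in which the authors deposited 1 value per row and genotype.

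RNA came from kernel endosperm at 15 days after pollination (DAP), in wild type plants and in the opaque2 mutant, with 1 sample analysed per genotype. The opaque2 allele and the genetic background of either genotype were not given in the sources used here. Triplicates appear in the design text, and how these relate to the deposited values is likewise not given, so differences lack a replicate check and no p-values are printed. Depth is unknown for want of counts, and a value of 0 may also be a failed estimate. For that reason loci are described as listed at 0, and no fold change is given for a single member.

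The endosperm is the nourishing tissue of the cereal kernel, and it fills with starch and storage proteins as the grain matures. The bZIP transcription factor Opaque2 acts in this tissue, where it is best known for activating genes of the zeins, the main storage proteins. Zein genes often occur as tandem copies of high sequence similarity, and annotated gene models in plants often overlap. Reads from overlapping or near-identical models can be split among them in more than one way, so the single values of such rows are uncertain.

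The rows carry positions and no gene names, and their genome build was not given in the sources used here. None of the nuclear rows, that is 0 of 43974, matched a gene of the RefSeq table for Zm-B73-REFERENCE-NAM-5.0 by start and end, and positions were not converted. No gene is therefore named, the cell types of the tissue were not checked by markers, and no sequence is printed. Among 115 organelle rows, 39 matched a reference gene after 1 was added to the start and 0 matched as given, so 1 was added to each start below.

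The rule itself fixed the difference between genotypes, so the counts and levels that follow describe the members and support nothing. Of the 15116 rows that met the span limit and reached 5 FPKM in the higher library, the wild type only loci were 0.258% and the opaque2 only loci 0.41%, together 0.668%. Below 5 FPKM, too, values of 0 were more frequent in wild type, as given further on. The difference in set size is therefore not particular to the members. The wild type only loci had a median of 25.7 FPKM in wild type, with quartiles at 8.08 and 66.5 and a highest value of 932. The opaque2 only loci had a median of 11.8 FPKM in opaque2, with quartiles at 7.82 and 43.3 and a highest value of 6631. At the top, 5 opaque2 only loci and 0 wild type only loci exceeded 1000 FPKM, whereas 10 and 7 exceeded 100 FPKM.

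In sum the wild type only loci held 2793 FPKM, 0.131% of all values of the wild type library. The opaque2 only loci held 18219 FPKM, 0.852% of the opaque2 library. The 5 highest members made up 61.1% of the first sum and 87.7% of the second. In both sets a few abundant loci thus carried the total. Rows of 300 bp or more with at least 5 FPKM in a library had a median of 14.6 FPKM in wild type and 14.7 in opaque2, so the wild type only median lay above the usual level and the opaque2 only median below it. In all, 21 of the 39 wild type only and 24 of the 62 opaque2 only loci reached 20 FPKM. Of all rows of 300 bp or more with at least 5 FPKM in the library, 37.4% in wild type and 37.7% in opaque2 reached 20 FPKM. The level of 100 FPKM was reached by 744 of 14319 such rows in wild type and 801 of 13943 in opaque2.

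**Figure D1:**
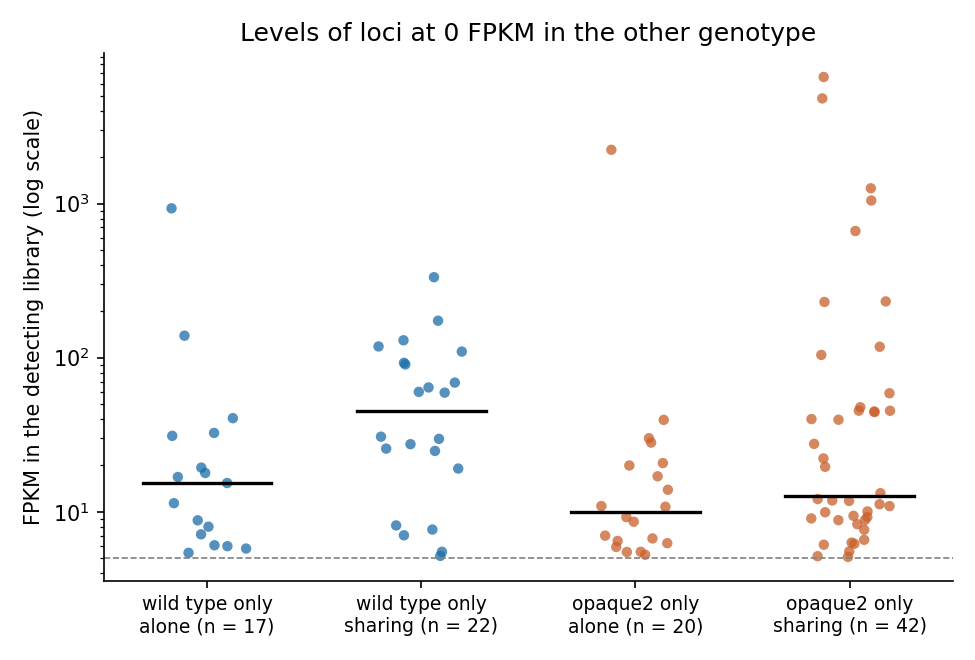
Each point is 1 locus, placed by its FPKM in the library where it was above 0 (log axis), for loci alone at their position and loci sharing a position with other rows. Black lines are medians and the dashed line marks the limit of 5 FPKM. The opaque2 only set reaches 6631 FPKM, against 932 FPKM in the wild type only set.

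The limits of the rule separated loci of nearly equal values. The wild type only loci just inside 5 FPKM had 5.18, 5.42 and 5.50 FPKM in wild type, and rows just outside had 4.27, 4.21 and 4.01 FPKM. The opaque2 only loci just inside had 5.09, 5.15 and 5.26 FPKM in opaque2, and rows just outside had 4.98, 4.94 and 4.73 FPKM. The shortest members spanned 317, 325 and 327 bp in the wild type only set, and 302, 327 and 371 bp in the opaque2 only set. Below 300 bp the longest excluded rows spanned 271, 240 and 227 bp, and 294, 277 and 247 bp. In all, 46 rows listed at 0 in opaque2 and 148 listed at 0 in wild type were left out for their short span alone.

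The third limit, exact 0, lay next to few other rows. Of rows with 5 FPKM or more in wild type, 0 lay between 0 and 0.05 FPKM in opaque2, and the closest had 0.0657 FPKM against 39.7 FPKM, on chromosome 4 at 5093411 to 5137340. In the reverse direction 3 rows lay in that range. They were on chromosome 5 at 91434867 to 91439446 (wild type 0.0197 and opaque2 7.69 FPKM), on chromosome 7 at 91859088 to 91863042 (0.0286 and 5.27 FPKM) and on chromosome 9 at 35949017 to 35954762 (0.0494 and 5.08 FPKM).

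Values of 0 became rare as the level in the other library rose, and then less rare again at the top. Of rows of 300 bp or more that had 0.1 to 1 FPKM in opaque2, 17.1% stood at 0 in the other library, and 7.36% in the reverse direction. Below 0.1 FPKM the shares were 42.4% and 11.01%, and at 1 to 5 FPKM they were 1.94% and 0.819%. At each of these levels, all below the limit for members, values of 0 were more frequent in wild type. At 5 to 20 FPKM the shares were 0.437% and 0.201%, and at 20 to 100 FPKM they were 0.314% and 0.303%. At 100 FPKM or more they were 1.25% (10 of 801 rows) and 0.941% (7 of 744 rows). The rise at the top was seen mainly in rows that share a position, with 4.07% (9 of 221) and 2.30% (5 of 217) listed at 0. In rows alone at their position the shares at that level were 0.172% (1 of 580) and 0.380% (2 of 527), counts too small to compare.

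Many members shared their position with other rows. A position is shared when further rows overlap it, and in these tables all such overlaps on the 10 chromosomes were rows with an identical start and end, with 0 exceptions. Of the 101 members, 64 shared their position (63.4%, exact Clopper-Pearson 95% interval from 53.2% to 72.7% with loci taken as independent). Among all 15116 rows past the limits the share was 25.1%. In the wild type only set 22 of 39 loci shared their position (56.4%), and in the opaque2 only set 42 of 62 did (67.7%).

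Read the other way, 1.69% of the 3787 rows that share a position were members, against 0.327% of the 11329 rows that stand alone. For wild type only loci these shares were 0.581% and 0.15%, and for opaque2 only loci 1.11% and 0.177%. Positions with 2 rows had 21 wild type only and 31 opaque2 only loci among 3232 rows. Positions with 3 rows had 1 and 8 among 446 rows, and positions with 4 or more rows had 0 and 3 among 109 rows. The higher share among shared positions was therefore present in both sets.

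That contrast rests on the span limit. Of all 15741 rows of any span with 5 FPKM or more, 295 were listed at 0 in one genotype (1.87%), and 64 of these shared their position (21.7%), against 24.1% of the 15741 rows. Of the rows alone at their position 231 of 11954 were then listed at 0 (1.93%), beside the 1.69% of rows that share one. The 194 rows under 300 bp listed at 0 were all alone at their position, and leaving them out gives the shares of the members above.

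**Figure D2:**
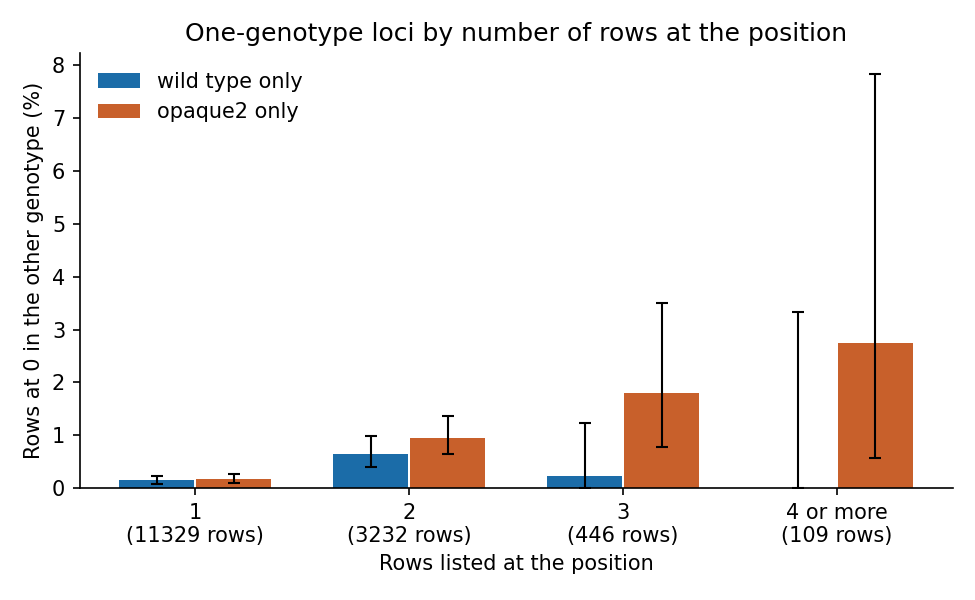
Bars give the percent of rows of 300 bp or more and 5 FPKM or more that were listed at 0 in the other genotype, by the number of rows at their position. Whiskers are exact Clopper-Pearson 95% intervals over rows. They take rows as independent, which rows of the same position may not be, so they may be too narrow. With 1 row at the position 0.150% of rows were wild type only and 0.177% opaque2 only, and with 2 rows 0.650% and 0.959%.

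A shared position may also change what the span says. All rows of such a position carry the same start and end, so a short model inside a long one would carry the long span and pass the limit of 300 bp. Whether any row is such a model is not known. Members that share a position had a median span of 4630 bp and those alone had 815 bp. For all rows past the limits the medians were 5294 bp for shared positions and 3819 bp for rows alone. The length of a row's own transcript is not in the files, and its part in the result was not tested.

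The other rows at the shared positions, here called partners, were not used by the rule, and most of them were listed above 0 in both genotypes. Apart from partners that are members themselves there were 74 partners at these positions, 23 beside wild type only and 51 beside opaque2 only loci. All 23 and 49 of the 51 were above 0 in both libraries. Among the 37 partners that reached 5 FPKM the log2 ratio (opaque2 over wild type, pseudocount of 1) had a median of 0.06 and quartiles at −0.10 and 0.27. Only 2 of these 37 (5.41%) differed 2-fold, against 6.96% of all non-member rows of that level at shared positions, and 33 lay within 1.5-fold. At this level the partners' share of changed rows was near the background.

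Below 5 FPKM further partners differed. Over all levels 9 of the 74 partners differed 2-fold (12.2%), against 5.14% of the 9300 non-member rows at shared positions. These shares are not matched for level, as 37 of the 74 partners but only 3723 of the 9300 rows reached 5 FPKM. The pseudocount of 1 also keeps the ratios of the lowest rows small. All 9 differed in the same direction as the member, 2 beside wild type only and 7 beside opaque2 only loci. Beside an opaque2 only locus on chromosome 9, at 147384037 to 147390803, the partner was listed at 2.95 FPKM in the mutant and 0.146 FPKM in wild type. Beside a wild type only locus on chromosome 1 at 24404290 to 24408869, both partners were lower in opaque2, with 0.0698 and 0.265 FPKM against 2.50 and 2.30 in wild type.

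By set, 0 of 10 partners of wild type only loci past 5 FPKM differed 2-fold, with log2 ratios from −0.57 to 0.39. Beside opaque2 only loci 2 of 27 did, both higher in opaque2, and the ratios ran from −0.78 to 1.12. The first, on chromosome 2 at 27834570 to 27861240, had opaque2 and wild type values of 10.5 and 4.32 FPKM, and the second, on chromosome 7 at 15469931 to 15472402, had 31.5 and 14.8 FPKM. In the genotype where the member was at 0, the partners of 51 of the 64 members summed to at least 1 FPKM, and those of 33 to at least 5 FPKM.

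**Figure D3:**
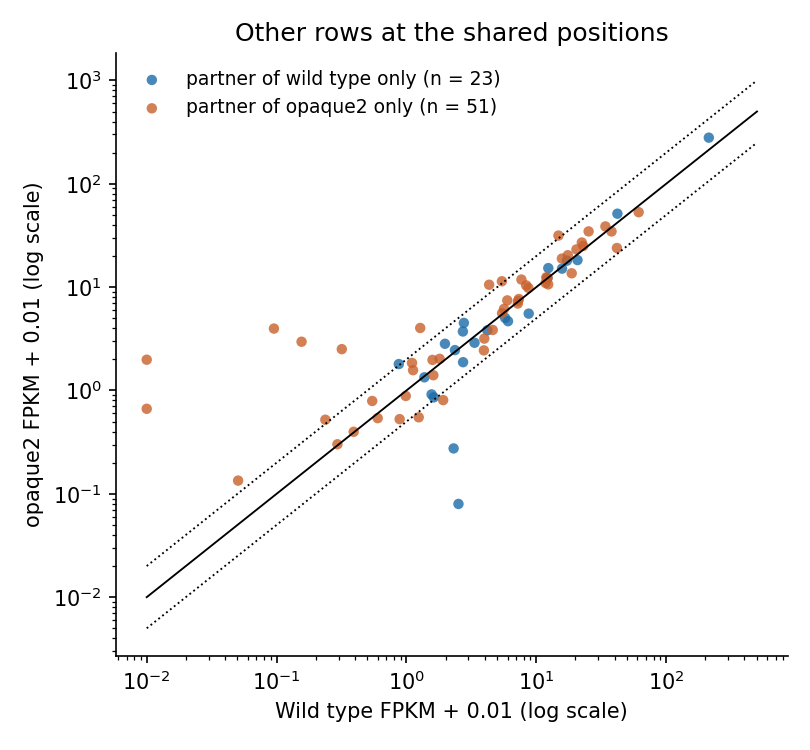
Each point is a further row at a position that holds a one-genotype locus, with its wild type FPKM on the horizontal axis and its opaque2 FPKM on the vertical axis, both with 0.01 added and on log axes. The solid line marks equal values and the dotted lines 2-fold. Most of the 74 points lie near the solid line, and the outlying points are at low levels, including 2 rows listed at 0 in wild type.

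Among the opaque2 only loci that share a position, the 4 above 1000 FPKM had partners at far lower levels. The highest, on chromosome 8 at 170103717 to 170110904, reached 6631 FPKM in opaque2, rank 15 of that library on the 10 chromosomes. Its single partner had 0.124 FPKM there and 0.0405 in wild type. The next, on chromosome 4 at 142948906 to 142951576, reached 4816 FPKM, and its 2 partners summed to 2.27 FPKM in that library and 0.284 in wild type. In wild type these positions were thus listed near 0, both in the member and in its partners.

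Partners of the other members above 1000 FPKM at shared positions hardly differed between genotypes, at unlike levels. On chromosome 1 at 45637088 to 45665900 the member had 1257 FPKM in opaque2, and its 2 partners summed to 38.8 FPKM there and 30.0 in wild type. On chromosome 8 at 167320224 to 167320961 the member had 1047 FPKM and its partner 0.388 and 0.382 FPKM. That position too was thus listed near 0 in wild type. A member of 664 FPKM on chromosome 1 at 142655614 to 142662230 had a partner at 3.96 FPKM in opaque2 and 0.0854 in wild type. In that last case member and partner were both the higher in opaque2.

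The opaque2 only loci from 47.7 to 232 FPKM at shared positions mostly stood beside partners that were well above 0 in both genotypes. On chromosome 1 at 292694407 to 292704781 the member had 232 FPKM and its partner 13.6 FPKM in opaque2 and 18.7 in wild type. On chromosome 9 at 92311409 to 92315276 the member had 230 FPKM, with a partner at 38.6 and 34.0 FPKM. On chromosome 5 at 3666812 to 3677715 the member had 104 FPKM, with a partner at 6.15 and 5.62 FPKM. None of these 3 partners differed 2-fold. The member of 118 FPKM on chromosome 7 at 15469931 to 15472402 was the exception in this range, as its partner was the one that differed 2-fold above. On chromosome 8 at 172238804 to 172245944 the member had 58.8 FPKM beside 34.6 and 25.3 FPKM, and on chromosome 5 at 54732876 to 54738341 it had 47.7 FPKM beside 23.1 and 20.4 FPKM.

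Of the wild type only loci at shared positions, 5 exceeded 100 FPKM, and none exceeded 1000 FPKM. The highest, on chromosome 3 at 192017604 to 192018957, reached 333 FPKM in wild type, with a partner at 1.87 FPKM in opaque2 and 2.72 in wild type. On chromosome 7 a member at 102646284 to 102649093 had 174 FPKM beside 3.71 and 2.71 FPKM, and a member at 25805168 to 25810013 had 130 FPKM beside 2.82 and 1.97 FPKM. In both of these the partner was slightly higher in opaque2, the genotype where the member was at 0. On chromosome 1 at 271027511 to 271032607 the member had 118 FPKM beside 4.49 and 2.76 FPKM. On chromosome 9 at 112882056 to 112884440 it had 110 FPKM beside 51.3 and 42.1 FPKM.

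The next 5 of this set, from 60.0 to 92.6 FPKM, again stood beside partners that differed less than 2-fold. On chromosome 10 at 121688653 to 121692022 the member had 92.6 FPKM, and the partner had 4.67 FPKM in opaque2 and 6.04 in wild type. On chromosome 5 at 203935157 to 203941045 it had 90.4 FPKM beside 18.0 and 17.2 FPKM. On chromosome 9 at 22327580 to 22331685 it had 64.1 FPKM beside 15.3 and 12.4 FPKM. The remaining members of this range lay on chromosome 1, at 23923033 to 23925308 with 68.9 FPKM and at 29259499 to 29263235 with 60.0 FPKM. Their partners were low, with 0.848 and 0.906 FPKM in opaque2 and 1.61 and 1.55 in wild type.

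Gains in the partners were set beside the members in FPKM. Since the lengths of the single transcripts are not in the files, such a gain does not show how many fragments moved between rows. The partners of 22 of the 64 members were higher in the genotype where the member was at 0. For 1 member alone the gain reached 50% or more of the member's level. This was a wild type only locus of 5.18 FPKM on chromosome 1 at 234648987 to 234652195, whose partner had 279 FPKM in opaque2 and 213 in wild type. The next highest gain, for an opaque2 only locus of 44.4 FPKM on chromosome 1 at 290139770 to 290161386, was 47.8% of the member's level, with partners summing to 58.4 FPKM in opaque2 and 79.6 in wild type. When all rows of a position were summed, 55 of the 64 members lay at positions that still differed 2-fold, and 9 did not, 8 of them opaque2 only. That count includes the members' own values and is a description.

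At 1 shared position every row was listed at 0 in wild type. This was a pair of opaque2 only loci on chromosome 7 at 72124159 to 72126980, which had 10.1 and 5.53 FPKM in opaque2. A second pair of opaque2 only loci, on chromosome 1 at 21196693 to 21221560, had 45.3 and 22.2 FPKM, and the highest of the 3 other rows there had 11.4 FPKM in opaque2 and 5.42 in wild type. The second position thus had values above 0 in both libraries.

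The longest members at shared positions were read beside their partners. On chromosome 7 an opaque2 only locus at 152703579 to 152742017, with a span of 38439 bp, had 7.65 FPKM in opaque2, beside partners summing to 11.5 FPKM in opaque2 and 12.4 in wild type. In the wild type only set the longest spans were 24347, 14578 and 12446 bp. These lay on chromosome 5 at 86823954 to 86848300 with 25.7 FPKM in wild type, on chromosome 7 at 153705463 to 153720040 with 7.67 FPKM, and on chromosome 9 at 81298581 to 81311026 with 59.3 FPKM. Their partners had 5.02, 1.79 and 15.1 FPKM in opaque2 and 5.74, 0.863 and 15.8 FPKM in wild type.

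The 37 members alone at their position, 17 wild type only and 20 opaque2 only, form the part of both sets without a further row in the other library. They were short: 24 of the 37 spanned less than 1000 bp (64.9%), against 10.7% of all 11329 rows alone at their position. FPKM times the span in kb gives an upper limit for the fragments in 1000000 mapped ones, as a transcript is at most as long as its span. The median of this limit was 9.96 fragments in the members alone and 61.5 in all such rows, both in the higher library. The limit was thus lower in the members, and the part of sampling in their values of 0 was not tested.

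Most members alone were at low levels, and a few were abundant. In the opaque2 only set the highest was on chromosome 9 at 144385601 to 144386370, with a span of 770 bp and 2234 FPKM in opaque2, rank 47 of that library. Its nearest rows past 5 FPKM, 65.7 kb before and 56.9 kb after it, had 8.86 and 10.3 FPKM in opaque2 and 8.12 and 9.83 in wild type. A further row, also 56.9 kb after it, had 38.03 FPKM in opaque2 and 27.66 in wild type. None of these rows differed 2-fold, and the difference in the member itself was fixed by the rule.

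The other opaque2 only loci alone at their position ranged from 5.26 to 39.5 FPKM. The second, on chromosome 2 at 19253013 to 19255143, reached 39.5 FPKM in opaque2, and a row 2.21 kb after it had 3.88 FPKM there and 5.10 in wild type. Next were loci on chromosome 1 at 109644467 to 109645281 with 30.0 FPKM and on chromosome 9 at 84237394 to 84238225 with 28.1 FPKM. Beside the chromosome 9 locus, 3.37 kb after it, lay a short row with the opposite pattern, at 84241597 to 84241771, listed at 0 in opaque2 and at 10.2 FPKM in wild type. The widest span of all, 166693 bp, belonged to a locus on chromosome 6 at 47573766 to 47740458, which had 5.48 FPKM in opaque2.

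In the wild type only set the highest locus alone at its position was on chromosome 5 at 126664454 to 126665081, with a span of 628 bp and 932 FPKM in wild type, rank 110 of that library. It had 6 rows within 100 kb, and 0 of them reached 5 FPKM in either genotype. The second, on chromosome 4 at 5078343 to 5079419, had 139 FPKM and belongs to a group described next. Those that followed were on chromosome 1 at 126103819 to 126104151 with 40.5 FPKM and on chromosome 4 at 47747351 to 47751429 with 32.5 FPKM. Beside the latter, 23.2 kb before it, a row had 25.1 FPKM in opaque2 and 30.4 in wild type.

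Some of the wild type only loci alone at their position lay close together. On chromosome 4, 3 of them lay within 7.41 kb, at 5075029 to 5076097, 5078343 to 5079419 and 5081480 to 5082435. They had spans of 1069, 1077 and 956 bp and 16.8, 139 and 7.14 FPKM in wild type. No other row lay between them, and 11 of the 12 neighbours past 5 FPKM within 100 kb were lower in opaque2 by at least 2-fold. These 11 rows stand at 5 positions, and 6 of them share the position 5093411 to 5137340. They form a block of loci lower in opaque2, and the next row past 5 FPKM beyond the group, at 5089369 to 5090254, had 80.2 FPKM in wild type and 0.519 in opaque2. A nearer row of low level, at 5088206 to 5088510, had 0.433 FPKM in opaque2 and was listed at 0 in wild type. Another wild type only locus, at 5490429 to 5491180 with 8.005 FPKM, lay 408 kb farther on, and its nearest rows past 5 FPKM, on either side, did not differ 2-fold, although 4 of its 11 neighbours of that level did.

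On chromosome 7 a group of 3 lay within 5.24 kb, at 11433783 to 11434489, 11434810 to 11435265 and 11438104 to 11439021, with 15.4, 31.1 and 5.98 FPKM in wild type. Here the nearest rows past 5 FPKM were higher in opaque2, unlike those of the group on chromosome 4. The next row, 1.90 kb beyond the group at 11440921 to 11445373, had 98.6 FPKM in wild type and 144 in opaque2, and the nearest row past 5 FPKM on the other side had 43.2 and 66.2 FPKM. Further wild type only loci alone at their position lay at 10165497 to 10166683 with 6.06 FPKM and at 11608451 to 11609611 with 5.42 FPKM. Within the 1.44 Mb that hold all 5, 4 of the other 16 rows past 5 FPKM differed 2-fold (25%). Of all non-member rows of that level 7.35% did, so the wider stretch was not free of changed rows.

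Together these 2 stretches held 9 of the 17 wild type only loci alone at their position, and 0 of the 20 opaque2 only ones. No pair of opaque2 only loci at different positions lay within 100 kb of each other. The nearest such pair, on chromosome 1 at 215443712 and 215912930, was 465 kb apart. At the end of chromosome 8, 7 opaque2 only loci lay within 15.3 Mb, from 156906971 to 172245944. The stretch was drawn around these members and held 249 rows past the limits. Over all chromosomes 62 of 15116 such rows were opaque2 only (0.41%). Among the other 248 rows past 5 FPKM in the stretch 11 differed 2-fold (4.44%), against 7.35% of all non-member rows of that level.

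Chromosomes 7, 8 and 1 held uneven shares of the sets. Chromosome 7 held 9 of the 39 wild type only loci (23.1%) and 5 of the 62 opaque2 only loci (8.06%), against 7.98% of all rows past the limits. Of these 9 wild type only loci, 5 lay in the stretch of 1.44 Mb described above, 3 of them within 5.24 kb. Chromosome 8 held 1 (2.56%) and 9 (14.5%), against 9.27% of rows. Chromosome 1 held 7 (17.9%) and 18 (29.0%), against 16.0% of rows. Chromosomes 2 and 3 were low in both sets, with 3 and 2 wild type only and 3 and 3 opaque2 only loci, against 11.4% and 10.8% of rows. Of both sets together, 13.9% lay on chromosome 7 (14 of 101, exact Clopper-Pearson 95% interval 7.79% to 22.2%). The interval takes loci as independent, which those of the stretch may not be. Counts are small, and no difference in placement between the sets was tested.

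**Figure D4:**
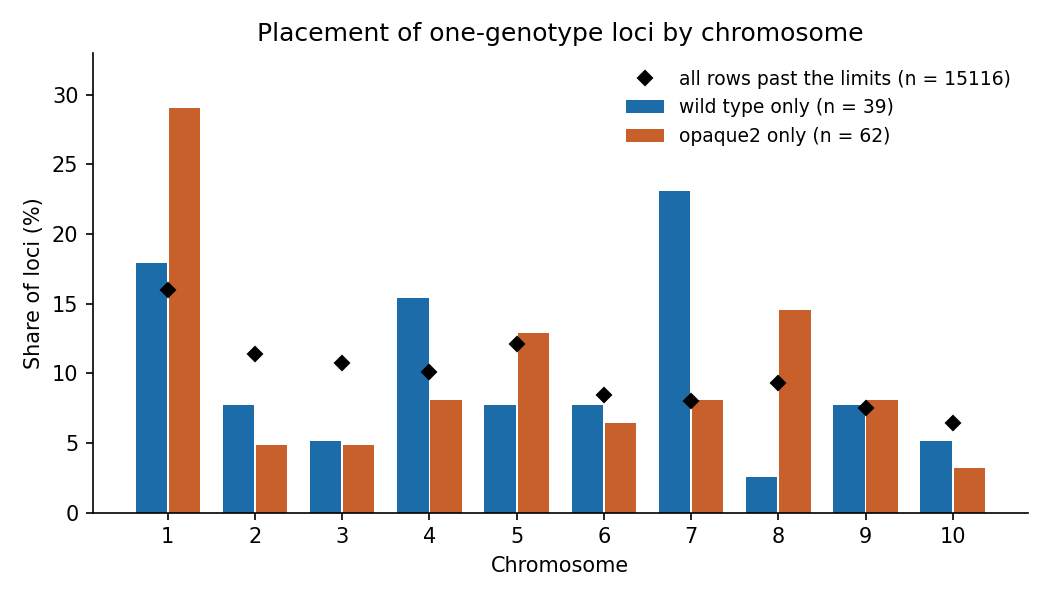
Bars give the percent of each set on each chromosome, and diamonds the percent of all 15116 rows of 300 bp or more and 5 FPKM or more there. The wild type only bar on chromosome 7 (23.1%) and the opaque2 only bar on chromosome 1 (29.0%) stand above the diamonds at 7.98% and 16.0%. Of the 9 wild type only loci on chromosome 7, 5 lie within 1.44 Mb.

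Placement along the chromosomes was described by distance from the ends. The outer 20% at both ends of the chromosomes, measured to the last row of each, held 25 of the 39 wild type only loci (64.1%), 32 of the 62 opaque2 only loci (51.6%) and 59.0% of all rows past the limits. The sets lay on opposite sides of the value for all rows, and the difference was not tested. Both the members and all rows past the limits had a median of 5 other rows within 100 kb. The nearest other row was at a median of 2.37 kb for wild type only loci, 6.53 kb for opaque2 only loci and 3.41 kb for all rows. The members alone at their position had the widest difference between the sets, with medians of 2.35 and 10.9 kb. Other members count as rows here. In the wild type only groups on chromosomes 4 and 7 described above, the nearest row was often another member, at 0.32, 2.06 or 2.245 kb. These groups lower the wild type only median, and the difference was not tested.

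The neighbours, other rows within 100 kb that are no members and do not overlap one, were not used by the rule. Of 266 neighbours that reached 5 FPKM, 45 differed 2-fold (16.9%, exact Clopper-Pearson 95% interval 12.6% to 22.0%), against 7.35% of all non-member rows of that level. The interval takes rows as independent, although many lie beside the same member or at the same position, so it is likely too narrow. Beside wild type only loci it was 30 of 138, with 23 lower and 7 higher in opaque2, and beside opaque2 only loci 15 of 128, with 7 lower and 8 higher. Of all non-member rows of that level 3.63% were lower and 3.72% higher. Counted by position, 38 of 237 neighbouring positions held a row that differed (16.0%), against 7.67% of all positions with a non-member row of that level. The neighbours' median log2 ratio was near 0 in both sets, −0.0037 and −0.06, beside −0.04 for all non-member rows.

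Removal of 1 region lowered this share. Beside wild type only loci alone at their position, 18 of 37 neighbours differed (48.6%), and 11 of these are the rows of the chromosome 4 block. Counted by position, in place of rows, it was 12 of 29 (41.4%). Without the members of the stretches on chromosomes 4 and 7, 3 of 9 differed. Beside opaque2 only loci alone at their position the count was 4 of 33 (12.1%). Beside members that share a position it was 12 of 101 (11.9%) in the wild type only and 11 of 95 (11.6%) in the opaque2 only set. Over all members, leaving out those on chromosome 4 below 6 Mb gave 30 of 243 neighbours (12.3%).

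Short neighbours added to these counts. With neighbours of 300 bp or more, 34 of 247 differed (13.8%), against a background of 5.51%. Beside members that share a position the share was then 6.74% in the wild type only set (6 of 89) and 9.78% in the opaque2 only set (9 of 92). A single wild type only locus, on chromosome 1 at 234648987, had 55 of the neighbours past 5 FPKM, and 5 of these differed. Of the 69 members with a neighbour past 5 FPKM, 45 had no neighbour that differed 2-fold (65.2%), against 82.2% of the 12217 rows past the limits that have such a neighbour. For the other 32 members no neighbour reached that level, so nothing was measured there.

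**Figure D5:**
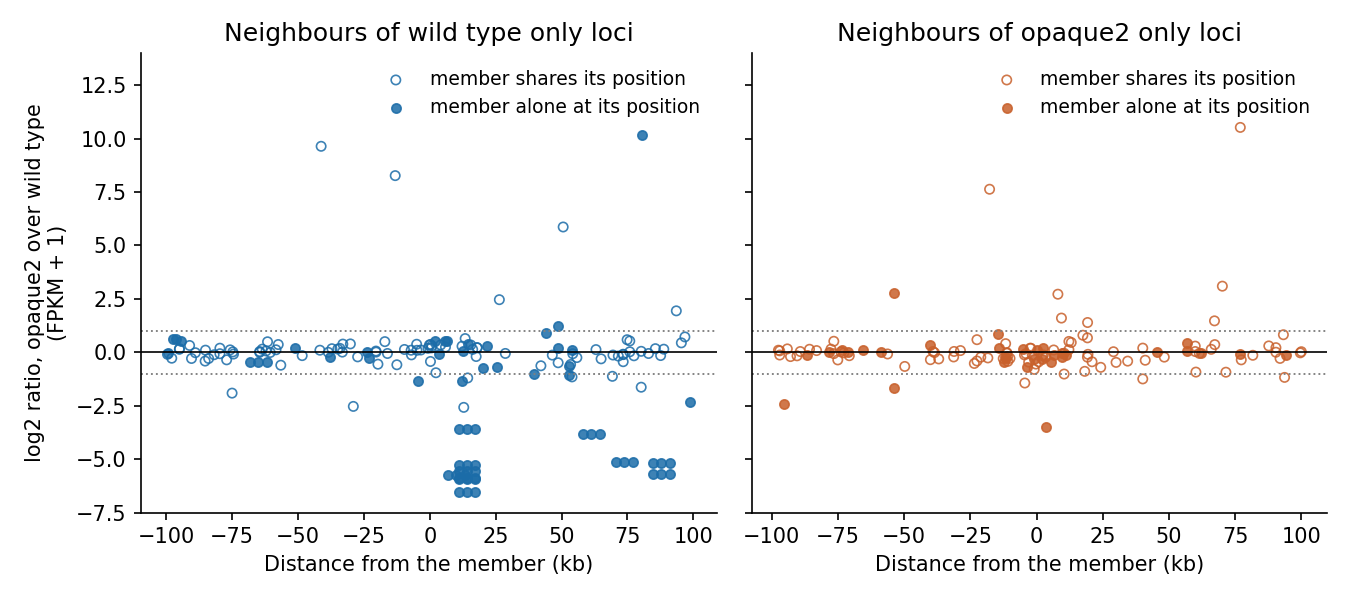
Each point is a neighbouring row of 5 FPKM or more, placed by its distance from the member (horizontal axis, kb) and its log2 ratio of opaque2 over wild type (vertical axis, FPKM + 1); a row near several members appears once for each. Filled points belong to members alone at their position, and dotted lines mark 2-fold. The filled points below −3 beside wild type only loci are those of the chromosome 4 block, and most other points lie near 0.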

How the data were processed

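RNA of 1 opaque2 and 1 wild type sample was analysed. Per the file headers, the deposited unit is FPKM, with 1 value per row. Bowtie 0.12.2 is named in the submitters' processing notes; its role, the estimating program, genome build and annotation were not given in the sources used here. Members were rows on chromosomes 1 to 10 with a span (end minus start as deposited) of 300 bp or more, FPKM of 0 in one genotype and 5 or more in the other. Positions join rows that overlap by 1 bp or more. Ratios are log2 of opaque2 over wild type with a pseudocount of 1, and 2-fold was the limit for changed rows. The code for the rule was checked on simulated rows with planted values of 0, which does not show what a listed 0 means in the data. With 1 sample per genotype no test across rows was made. Intervals over rows are exact 95% Clopper-Pearson intervals that take rows as independent, which nearby rows may not be. Loci given are the 12 highest and 3 longest of each set, members within 100 kb of another, up to 6 with partners of 1 FPKM or more in the other genotype, and 3 on each side of the limits; others were chosen after their values were seen. The members and lists were chosen with earlier results of these data known. Alternatives were other floors, spans, limits for 0, distances, pseudocounts and centring, and summed positions. Tools were Python 3.11.15 with pandas 2.3.3 and NumPy 2.4.6, SciPy 1.17.1 for intervals, and Matplotlib 3.10.9.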

Additional observations from a re-analysis of the deposited data

How the results depend on the processing

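Of 85 values under alternatives, 65 stayed near the reported ones: counts within 1.5-fold, shares within the 95% interval and medians within 1.5-fold. Among the 65 were 16 and 14 neighbour medians of the 2 sets and 8 values of the share on chromosome 7. For medians near 0 and for that share with its wide interval these limits are hard to cross, so the 65 overstate stability. The 20 values that moved were as follows. Wild type only loci numbered 21 with a floor of 20 FPKM, 85 without a span minimum and 18 as summed positions. Opaque2 only loci numbered 125, 37 and 24 with floors of 2, 10 and 20 FPKM, 210 without a span minimum and 22 as summed positions. The share of members at shared positions was 77.8% with a floor of 20 FPKM, 82.4% from 1000 bp and 21.7% without a span minimum, where short rows, all alone at their position, joined. Members whose whole position was at 0 in the other genotype, 39 with the main limits, numbered 87, 21 and 10 with floors of 2, 10 and 20 FPKM, 15 from 1000 bp and 233 without a span minimum. Of the 39, 37 were alone at their position, where the rule itself fixes this 0, and 2 shared one. Changed neighbours were 23.0% with a floor of 20 FPKM, 10.6% without a span minimum, 12.6% within 200 kb and, chosen after seeing the data, 12.3% without members on chromosome 4 below 6 Mb. Counting neighbouring positions in place of rows, also chosen after seeing the data, gave 16.0%. Other floors and spans change the number of loci by construction. The share on chromosome 7 stayed between 8.89% and 15.0%. The wild type only neighbour median lay between −0.27 and 0.05 and the opaque2 only one between −0.16 and −0.02. No paired analysis was possible because there was 1 value per row and genotype. Limits set by depth were not measured, since the values carry no counts.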
